A study of Mus musculus with 4 samples.

Results

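Neurotransmitter receptor subunit genes were examined in single-cell RNA-seq data of tdTomato-positive cells sorted from the mouse cerebellum at E15.5. Gene symbols of GABA-A, glycine, AMPA, NMDA, kainate, delta and metabotropic glutamate receptor subunits were searched in the 32286 features of the files. The search matched 52 symbols, and 42 of them had at least 20 UMIs (unique molecular identifiers, 1 per captured transcript molecule) counted over the barcodes that had 500 or more genes and a mitochondrial share of 10% or less. Of the 42 genes, 41 encode receptor subunits and 1, Grid2ip, encodes a scaffold protein and matched through the start of its symbol. Grid2ip was the lowest gene above the minimum with 22 UMIs, and Glra3 was the highest below it with 17 UMIs. Grin3b, Gabrd, the antisense gene Grin1os and Gabrr1 had 5, 3, 2 and 1 UMIs. Gabrp, Gabra6, Grm6, Gabrr3 and Glra4 had 0 UMIs.

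Control embryos carried Ptf1aCre/+ and the reporter R26LSL-tdT/+. The En1/2 CKO embryos carried both of these and En1lox/lox and En2lox/lox. Cre is driven from Ptf1a, which is active in the progenitors of cerebellar GABAergic neurons, so recombination and the reporter were directed to this lineage. Each genotype had 2 libraries, and each library came from pooled embryos. How many embryos went into a pool is not stated in the sources used here, and every p-value below measures only the spread between such pools.

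GABA-A and glycine receptors are anion channels opened by GABA and glycine. AMPA, NMDA and kainate receptors are cation channels opened by glutamate, and the delta receptors share their fold but act mainly as synaptic adhesion proteins bound by cerebellins. Metabotropic glutamate receptors signal through G proteins. In the embryo GABA and glycine receptors are present before most synapses form.

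Several GABA-A subunit genes lie side by side in the mouse genome, and the 4 of chromosome 5 had their highest means in 3 different cell types. For all of them but Gabrg1 the range over libraries overlapped that of the type with the next highest mean. Gabrg1, Gabra2, Gabra4 and Gabrb1 lie within chr5:70751047-72149037 (GRCm38, GENCODE vM21). Gabra4 (minus strand) and Gabrb1 (plus strand) start head to head, with 196 bases of annotated overlap between the genes. The 300-base promoter windows of RefSeq run from 250 bases before to 50 bases after a RefSeq start. They are printed for these 4 genes because their highest means lay in different types. These were radial progenitor-like cells for the head-to-head pair, astroglia-like cells for Gabrg1 and Purkinje-like cells for Gabra2. The windows are chr5:71658259-71658558 (minus strand) for Gabra4, chr5:71657671-71657970 (plus strand) for Gabrb1, chr5:70842568-70842867 (minus strand) for Gabrg1 and chr5:71095800-71096099 (minus strand) for Gabra2, all in GRCm38.p6 and 5′ to 3′. The Gabrb1 window ends before the GENCODE start of that gene at 71658113, so its RefSeq and GENCODE starts differ. Capitals mark TAATTA, a core motif of homeodomain proteins such as Engrailed.
Gabra4 promoter: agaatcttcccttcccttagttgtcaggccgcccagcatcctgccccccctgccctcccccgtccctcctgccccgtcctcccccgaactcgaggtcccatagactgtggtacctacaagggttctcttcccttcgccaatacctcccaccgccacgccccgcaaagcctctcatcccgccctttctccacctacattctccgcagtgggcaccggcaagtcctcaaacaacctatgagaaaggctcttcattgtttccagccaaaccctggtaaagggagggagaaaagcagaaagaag
Gabrb1 promoter: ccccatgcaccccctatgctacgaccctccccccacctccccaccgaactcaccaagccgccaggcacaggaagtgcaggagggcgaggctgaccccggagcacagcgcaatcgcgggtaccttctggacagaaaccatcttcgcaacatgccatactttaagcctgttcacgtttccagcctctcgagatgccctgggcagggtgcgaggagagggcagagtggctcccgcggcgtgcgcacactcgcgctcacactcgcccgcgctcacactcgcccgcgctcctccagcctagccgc
Gabrg1 promoter: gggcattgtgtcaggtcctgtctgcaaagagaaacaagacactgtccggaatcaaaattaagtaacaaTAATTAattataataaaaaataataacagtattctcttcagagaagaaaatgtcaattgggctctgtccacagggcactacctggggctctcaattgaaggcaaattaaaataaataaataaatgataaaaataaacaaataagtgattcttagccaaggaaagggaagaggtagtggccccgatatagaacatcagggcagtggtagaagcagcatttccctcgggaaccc
Gabra2 promoter: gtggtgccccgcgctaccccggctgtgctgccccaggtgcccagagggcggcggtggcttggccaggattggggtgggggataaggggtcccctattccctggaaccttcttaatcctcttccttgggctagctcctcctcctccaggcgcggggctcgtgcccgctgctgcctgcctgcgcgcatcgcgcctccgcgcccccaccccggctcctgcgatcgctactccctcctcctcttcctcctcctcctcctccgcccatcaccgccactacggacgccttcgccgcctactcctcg
The share of G and C was 38.3% in the Gabrg1 window, 58.7% in the Gabra4 window, 66% in the Gabrb1 window and 70% in the Gabra2 window, against a median of 61% over the receptor windows and 52.7% over all windows. RefSeq windows were matched for 27 of the 42 genes, with 35 windows in all. TAATTA, which reads the same on both strands, was present in 1 of the 35 windows, that of Gabrg1, and in 5.29% of all 32851 windows. CAGCTG, an E-box core that also reads the same on both strands and does not overlap TAATTA, was present in 0 of the 35 windows and in 16.3% of all windows. A match is a run of letters and not a binding site.

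The libraries stood apart in quality. Control replicate 1 kept 9487 cells and control replicate 2 kept 1171, while En1/2 CKO replicates 1 and 2 kept 4893 and 7300. Only 25.5% of the barcodes of control replicate 2 passed the filter on genes and mitochondrial UMIs, against 63.9% to 94.6% in the other libraries. Control replicate 1 had 84964 CPM (the share of a gene in all UMIs of the summed cells, scaled to one common total for every library) of the nuclear RNA Malat1, against 31391 to 33649 CPM in the other libraries. Between 1 and 22 cell barcodes were shared by any pair of libraries. In interneuron-like cells En2 stood at 124 and 93.0 CPM in the controls and at 34.7 and 22.5 CPM in the mutants, and En1 stood at 124 and 192 CPM against 119 and 121 CPM. The sources used here do not say which exons were deleted, so 3′ tags of En1 and En2 may lie outside the deleted part.

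Cell types were named from marker genes after clustering without the receptor genes. Purkinje-like cells (clusters 8 and 12) numbered 998 and 36 in the controls and 440 and 458 in the mutants, and 3 UMIs in the 36 cells of control replicate 2 correspond to 30.8 CPM. Interneuron-like cells (clusters 1, 2 and 9) numbered 3089 and 209 in the controls and 1118 and 1308 in the mutants. Radial progenitor-like (clusters 0 and 13) and Ptf1a intermediate progenitor-like cells (clusters 6 and 7) were analysed together as progenitor-like cells, 2167 and 346 in the controls and 1818 and 1851 in the mutants. Clusters 3 (2203 cells) and 5 (1778 cells) kept no name. Cluster 3 had 8 of 10 interneuron markers and 6 of 14 Purkinje markers raised but did not meet the rest of the naming rule. Astroglia-like cells (cluster 4) also had 3 of 7 oligodendrocyte lineage markers raised, with Olig1 and Olig2 among the leading genes. At Leiden resolution 2 an oligodendrocyte lineage cluster of 571 cells appeared, so the astroglia-like type may hold cells of that lineage. Levels across cell types are a description without a test, given as the mean ± SD over libraries with at least 20 cells of the type. Each captured molecule counts once whatever the transcript's length, and capture differs between genes, so each gene is compared with itself across cell types.

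Receptor transcripts were not limited to neurons. Summed over the 42 genes they reached 2078 ± 171 CPM in Purkinje-like cells (SD, n = 4 libraries), 1469 ± 196 CPM in radial progenitor-like cells, 1384 ± 269 CPM in interneuron-like cells and 1261 ± 259 CPM in astroglia-like cells. In Ptf1a intermediate progenitor-like cells the sum was 589.7 ± 125 CPM, and in microglia- or macrophage-like cells, which should lack most of these genes, it was 126 ± 73.7 CPM. Of the 42 genes, 20 had their highest mean in Purkinje-like cells, 6 in radial progenitor-like cells, 5 in astroglia-like cells, 4 in interneuron-like cells, 4 in granule lineage-like cells, 2 in cycling-like cells and 1 in choroid plexus-like cells. Many of these peaks were not clear. The range over libraries lay above that of the type with the next highest mean for only 7 of the 20 genes in Purkinje-like cells. In the other types, in the order above, it did so for 3, 2, 1, 1, 0 and 1 genes. A mean of at least 50 CPM in some type was reached by 18 genes. The other 24 genes peaked at means between 1.69 and 48.2 CPM.

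**Figure D1:**
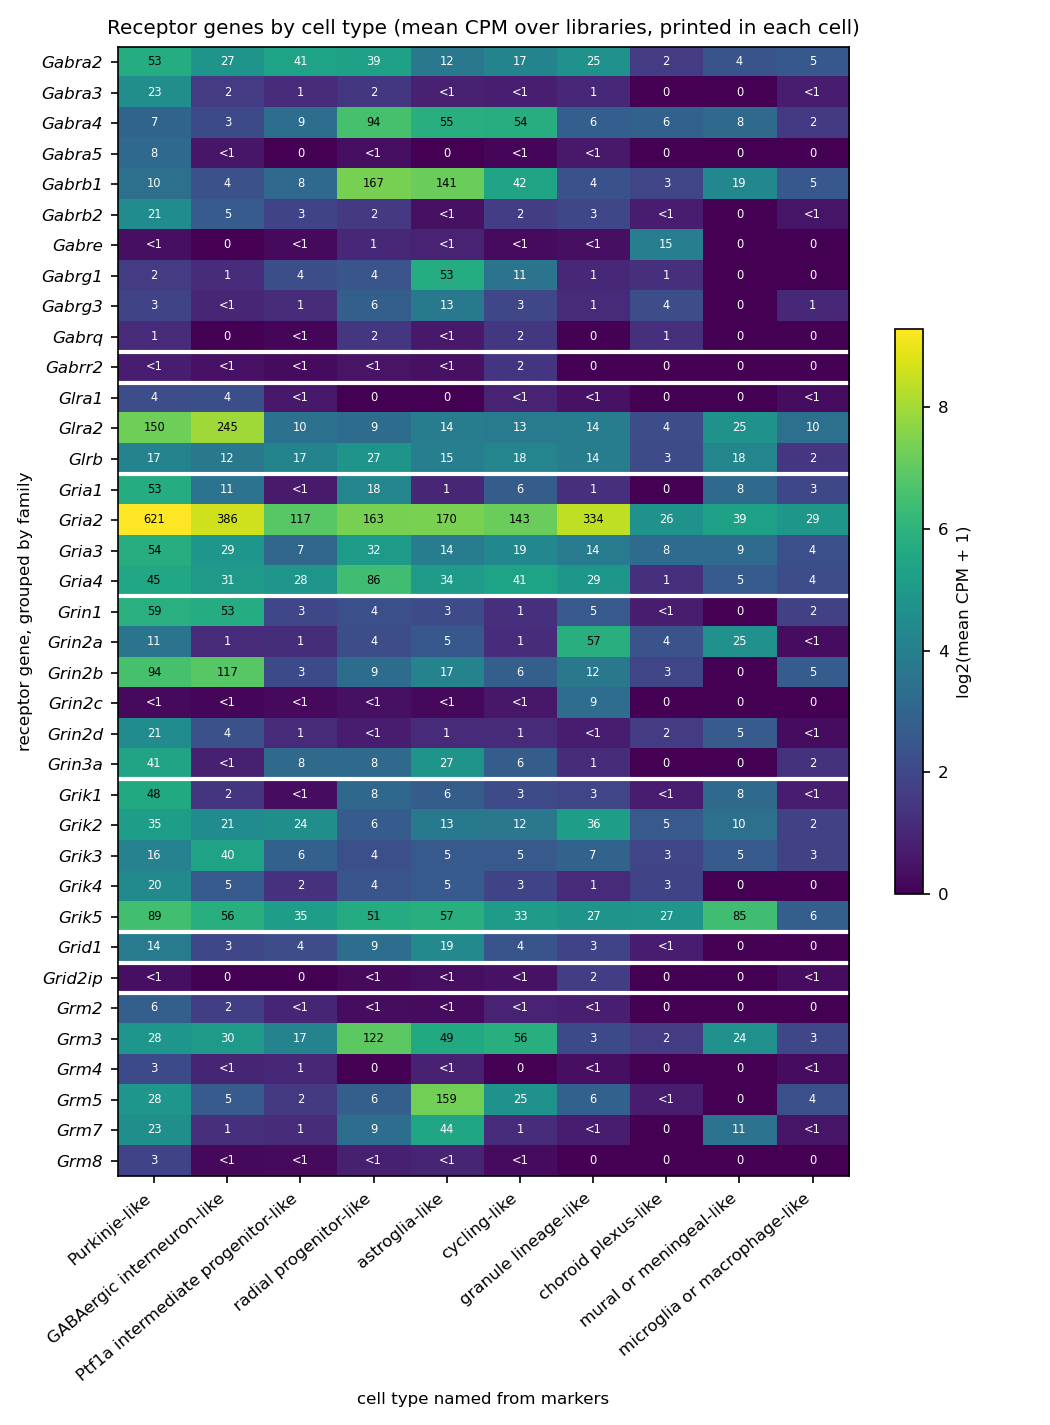
Mean CPM over libraries of 37 of the 42 genes (rows, grouped by receptor family) in the 10 named cell types with at least 20 cells in a library (columns). Colour gives log2(mean CPM + 1), and the printed numbers are the means. Gria2 is highest in Purkinje-like cells, while Gabrb1 and Gabra4 are highest in radial progenitor-like and astroglia-like cells. The unnamed clusters 3 and 5 are not drawn.

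Among the GABA-A subunits, the α2 gene Gabra2 was spread over neurons and progenitors, with 52.6 ± 19.4 CPM in Purkinje-like, 41.0 ± 16.1 CPM in intermediate progenitor-like, 39.0 ± 11.9 CPM in radial progenitor-like and 26.6 ± 15.4 CPM in interneuron-like cells. Its highest value in Purkinje-like cells, 81.5 CPM, was that of En1/2 CKO replicate 2. In the controls Gabra2 stood at 42.0 and 41.1 CPM in Purkinje-like cells and at 46.8 and 54.1 CPM in progenitor-like cells.

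The other genes of the chromosome 5 group had a different distribution. The β1 gene Gabrb1 stood at 148, 192, 161 and 169 CPM in the radial progenitor-like cells of control replicates 1 and 2 and En1/2 CKO replicates 1 and 2, and in the same order at 118, 147, 116 and 181 CPM in astroglia-like cells. In Purkinje-like, interneuron-like and intermediate progenitor-like cells Gabrb1 averaged 9.86, 3.90 and 8.08 CPM. Its head-to-head neighbour Gabra4, the α4 subunit, stood at 111, 69.5, 90.3 and 105 CPM in radial progenitor-like cells and at 58.9, 52.7, 38.0 and 70.7 CPM in astroglia-like cells, and averaged 6.89, 3.29 and 9.18 CPM in the same 3 neuronal and intermediate types. Both genes were therefore low in the neuron classes and high in the radial progenitor-like and astroglia-like cells of every library. The γ1 gene Gabrg1 was highest in astroglia-like cells, at 28.8, 101.7, 32.1 and 48.4 CPM, and averaged 4.40 CPM in radial progenitor-like, 3.66 CPM in intermediate progenitor-like, 2.05 CPM in Purkinje-like and 1.25 CPM in interneuron-like cells. At chrX:72255999-72842602 Gabra3 was highest in Purkinje-like cells at 22.8 ± 15.3 CPM, with 0 UMIs in control replicate 2. Gabre was highest in choroid plexus-like cells at 14.7 CPM over 2 mutant libraries, where 3 UMIs correspond to 4.16 and 12.8 CPM. Gabrq averaged 1.84 CPM in cycling-like and 1.75 CPM in radial progenitor-like cells, with overlapping ranges.

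Glra2, the glycine receptor α2 subunit of embryonic neurons, was highest in interneuron-like cells, at 223, 395, 169 and 195 CPM in control replicates 1 and 2 and En1/2 CKO replicates 1 and 2. In Purkinje-like cells it stood at 124, 123, 204 and 147 CPM, so that the ranges overlapped, and in radial and intermediate progenitor-like cells it averaged 8.62 and 10.1 CPM. The β subunit gene Glrb did not follow it, with its highest mean of 26.8 ± 6.45 CPM in radial progenitor-like cells. In interneuron-like cells Glrb stood between 8.43 and 18.6 CPM.

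Among the AMPA receptor genes, Gria2, whose edited product makes the channel impermeable to calcium, was highest in Purkinje-like cells at 489, 771, 609 and 616 CPM. It stood at 326, 558, 332 and 329 CPM in interneuron-like cells, so that the ranges overlapped only through control replicate 2. Gria2 averaged 163 CPM in radial progenitor-like, 117 CPM in intermediate progenitor-like and 29.2 CPM in microglia- or macrophage-like cells. Gria1 was concentrated in Purkinje-like cells at 53.1 ± 8.74 CPM, against 18.4 CPM in radial progenitor-like, 10.7 CPM in interneuron-like and 0.593 CPM in intermediate progenitor-like cells. Gria3 averaged 54.1 ± 27.8 CPM in Purkinje-like, 32.0 CPM in radial progenitor-like, 28.7 CPM in interneuron-like and 7.39 CPM in intermediate progenitor-like cells. Gria4 was highest in radial progenitor-like cells at 86.1 ± 20.4 CPM, above every library's value in Purkinje-like cells, where it averaged 44.6 CPM. It averaged 30.8 CPM in interneuron-like and 27.6 CPM in intermediate progenitor-like cells.

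NMDA receptors need the Grin1 subunit together with a Grin2 or Grin3 subunit. Grin1 averaged 58.6 ± 19.5 CPM in Purkinje-like and 53.0 CPM in interneuron-like cells, against 3.77 and 2.96 CPM in radial and intermediate progenitor-like cells. The 2 controls differed widely for this gene: in interneuron-like cells Grin1 stood at 94.6 CPM in control replicate 1 and at 8.27 CPM in control replicate 2, with 51.2 and 57.7 CPM in the mutants between them. Grin2b averaged 117 ± 57.4 CPM in interneuron-like, 94.4 CPM in Purkinje-like, 8.64 CPM in radial progenitor-like and 3.26 CPM in intermediate progenitor-like cells. Grin2a was highest in granule lineage-like cells, at 97.7, 43.5, 40.1 and 45.7 CPM, and averaged 10.8 CPM in Purkinje-like, 1.13 CPM in interneuron-like, 3.52 CPM in radial progenitor-like and 1.35 CPM in intermediate progenitor-like cells. Grin2c also had its highest mean there, at 8.94 ± 5.24 CPM, so that the granule lineage-like cells held the peaks of 2 of the 6 NMDA receptor genes.

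The kainate receptor gene Grik5, an auxiliary high-affinity subunit, was broad. It averaged 88.7 ± 20.1 CPM in Purkinje-like, 56.0 CPM in interneuron-like, 51.2 CPM in radial progenitor-like and 35.3 CPM in intermediate progenitor-like cells, and 85.4 CPM in mural or meningeal-like cells, where it rests on 3 libraries of 21 to 33 cells. Grik1, another kainate subunit gene, averaged 48.2 ± 9.95 CPM in Purkinje-like cells and had means of at most 8.35 CPM in the other named types.

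The median annotated length of the 42 genes was 204 kb, against 12.3 kb over the 32158 genes of the files found in the annotation.

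Of the metabotropic glutamate receptor genes, Grm5, coupled to phospholipase C, was highest in astroglia-like cells at 165, 267, 112 and 89.6 CPM. It averaged 28.5 CPM in Purkinje-like, 5.34 CPM in interneuron-like, 6.03 CPM in radial progenitor-like and 2.01 CPM in intermediate progenitor-like cells. Grm3, which inhibits adenylyl cyclase, was highest in radial progenitor-like cells, at 161 and 147 CPM in the controls and 87.0 and 92.4 CPM in the mutants, and averaged 30.3 CPM in interneuron-like, 28.2 CPM in Purkinje-like and 16.6 CPM in intermediate progenitor-like cells.

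The genotypes were compared first over all kept cells of a library. Of the 42 genes, 39 passed edgeR's filter on low counts, and 0 passed the adjusted threshold of 0.05 with edgeR's quasi-likelihood test, as did 0% of all 14628 genes tested. DESeq2 called 0 of the receptor genes. At an unadjusted edgeR p under 0.05 stood 6 receptor genes, all lower in the mutants, against 1.85% of all genes lower and 2.88% higher. With DESeq2 4 did. The log2 fold change was negative for 32 of the 39 genes with a median of -0.55, while 57.3% of all genes were negative with a median of -0.07. Without control replicate 1 it was negative for 24 and positive for 16 genes, with a median of -0.11. Both mutant libraries lay below both controls for 12 of the 39 genes, against 12.1% of all genes, and above both for 0, against 22.8%. A gene passes the filter on low counts partly through its higher group, and fewer cells of a type and less RNA per cell cannot be told apart in such a sum. The summed Purkinje markers stood at 2341 and 1938 CPM in the controls and at 1351 and 1287 CPM in the mutants over all kept cells, with 5 of the 14 markers lower in both mutants than in both controls, 0 higher and 0 at 0. Their part in the receptor values was not tested.

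Glra2 stood at 91.7 and 89.8 CPM in the controls and at 48.1 and 48.5 CPM in the mutants over all kept cells, a log2 fold change of -0.98 (SE 0.18, edgeR adjusted p = 0.942). The groups did not overlap, and the 2 libraries of each genotype lay close together. Gria2 stood at 244 and 330 CPM against 181 and 176 CPM, and Grm3 at 44.2 and 52.6 CPM against 33.0 and 32.1 CPM. Gabra2 stood at 40.6 and 30.04 CPM against 19.2 and 21.5 CPM. The log2 fold changes of these last 3 genes were -0.76, -0.65 and -0.87. Gria4, Glrb and Grik4 also had both mutants below both controls, with log2 fold changes of -0.44, -0.56 and -0.92. Without control replicate 1 the log2 fold changes of Glra2, Gria2 and Grm3 were -0.99, -0.98 and -0.79. Without control replicate 2 they were -0.96, -0.49 and -0.48. Grin1 had opposite directions in those fits, with log2 fold changes of 1.95 and -1.46.

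Within Purkinje-like cells the receptor genes had no common direction, and their median moved with the processing. Of 25 genes tested, 0 passed with edgeR, against 0.0227% of 8827 genes, and 0 with DESeq2. One, Gria3, had an unadjusted edgeR p under 0.05, higher in the mutants, against 1.38% of all genes higher and 1.53% lower. With DESeq2 0 did. The log2 fold change was negative for 12 and positive for 13 genes, with a median of 0.01. The median was -0.44 with 16 of 19 genes negative under the stricter cell filter, 0.31 without control replicate 1 and 0.19 with 27 of 42 genes positive without the filter on low counts. Both mutants lay above both controls for 10 of the 25 genes, against 17.3% of all genes, and below both for 1, against 12.5%. Control replicate 2 enters this comparison with 36 cells and 0 to 12 UMIs for each gene named below.

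Gria3, an X-linked AMPA receptor subunit, had 34.3 and 30.8 CPM in the Purkinje-like cells of the controls (49 and 3 UMIs) and at 90.7 and 60.5 CPM in those of the mutants (79 and 49 UMIs). Its log2 fold change was 1.15 (SE 0.37, edgeR adjusted p = 1.00). Without control replicate 2 the log2 fold change was 1.13. It was 1.39 in Purkinje-like cluster 12 and 0.94 in cluster 8. In interneuron-like cells Gria3 had 0.24, with 0.59, 1.68 and -0.38 in clusters 1, 2 and 9 alone. The difference between the 2 classes, by the test described below, was 0.76 (SE 0.38, edgeR adjusted p = 0.635). Xist, a sign of the share of female embryos in a pool, stood at 708 and 2405 CPM in the Purkinje-like cells of the controls and at 1080 and 1570 CPM in those of the mutants. Its part in the values of X-linked genes was not tested.

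Neither glycine receptor gene passed in Purkinje-like cells. Glra2 stood at 124 and 123 CPM in the controls and at 204 and 147 CPM in the mutants, a log2 fold change of 0.50 (SE 0.33). Glrb stood at 21.7 and 20.6 CPM against 11.5 and 13.6 CPM, a log2 fold change of -0.79 (SE 0.50). The kainate receptor gene Grik2 stood at 23.8 and 30.8 CPM against 40.2 and 44.5 CPM, a log2 fold change of 0.77 (SE 0.38). Gabra2, Grm5, Gria4, Gabra3 and Grin3a also had both mutants above both controls, with log2 fold changes of 0.59, 0.45, 0.44, 0.25 and 0.20. Within Purkinje-like clusters 8 and 12 Gabra2 had -0.10 and 1.16, so that its direction was not the same in both. None of these passed with edgeR. With the stricter cell filter of 1000 genes and 5% mitochondrial UMIs, which left 11 Purkinje-like cells in control replicate 2, the log2 fold changes of Glra2, Gabra2, Grm5, Grin3a and Gabra3 turned to -0.03, -0.21, -0.76, -0.59 and -0.23.

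In interneuron-like cells summed as 1 class most receptor genes had a negative log2 fold change, but not in each of its clusters. Of 21 genes tested, 0 passed with edgeR, against 0% of 10865 genes, and 0 with DESeq2. At an unadjusted edgeR p under 0.05 stood 3 genes, all lower, against 2.83% of all genes lower and 1.96% higher. With DESeq2 3 did. The log2 fold change was negative for 18 and positive for 3, with a median of -0.44, against 53.8% negative and a median of -0.03 over all genes. Both mutants lay below both controls for 9 of the 21 genes, against 15% of all genes, and above both for 2, against 18.9%. The make-up of the class differed between libraries. Cluster 9, whose cells had a median of 4064 UMIs against 1197 and 1122 in clusters 1 and 2, gave 6.32% of the class's UMIs in control replicate 1 and 58.5%, 70.6% and 58.0% in control replicate 2 and En1/2 CKO replicates 1 and 2. Within cluster 1 the log2 fold change was negative for 8 and positive for 7 receptor genes, with a median of -0.04. Within cluster 2 it was negative for 3 and positive for 10, with a median of 0.29, and within cluster 9 negative for 13 and positive for 2, with a median of -0.38. Control replicate 2 had 24 cells in cluster 2, where 3 UMIs correspond to 77.2 CPM.

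Gabra2 was the receptor gene with the smallest p in interneuron-like cells. It stood at 45.4 and 33.1 CPM in the controls (188 and 16 UMIs) and at 14.9 and 13.1 CPM in the mutants (46 and 35 UMIs), a log2 fold change of -1.57 (SE 0.27, edgeR unadjusted p = 0.000789 and adjusted p = 0.959). Without the filter on low counts the edgeR adjusted p was 0.00157. Without control replicate 1 or 2 the log2 fold change was -1.30 or -1.67. Within clusters 1, 2 and 9 alone it was -1.62, -0.99 and -0.76, and in clusters 1 and 2 both mutants lay below both controls. The cluster 2 value of control replicate 2 rests on 24 cells. Gabra2 lies on chromosome 5, as does En2, whose floxed alleles only the mutants carried, and 42.8 Mb separate the genes. Grm3 lies 18.4 Mb from En2 on the same chromosome. For both genes the loss of Engrailed and DNA linked to the floxed allele cannot be told apart.

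Grm3 stood at 35.2 and 45.5 CPM in the interneuron-like cells of the controls and at 21.7 and 18.7 CPM in those of the mutants, a log2 fold change of -0.93 (SE 0.27). Without control replicate 1 or 2 the log2 fold change of Grm3 was -1.23 or -0.77. Glra2 stood at 223 and 395 CPM against 169 and 195 CPM, a log2 fold change of -0.78 (SE 0.34). Glra2 was -0.16, 0.29 and -0.82 in clusters 1, 2 and 9 alone, so that its value in the class was not the value of each cluster. Grik4, Gria4 and Grik5 had both mutants below both controls, with log2 fold changes of -1.16, -0.55 and -0.26. In clusters 1, 2 and 9 alone Gria4 had -0.35, 0.22 and -0.06 and Grik5 had 0.10, -0.19 and -0.10, so that neither had the same direction in each. Grik2 had 0.32 with both mutants above both controls.

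In progenitor-like cells 24 of the 25 receptor genes tested had a negative log2 fold change, with a median of -0.48, against 54.8% negative and a median of -0.04 over all genes. Within cluster 0, which holds 2651 of the class's cells, it was negative for 11 and positive for 6 genes, with a median of -0.07. Within clusters 6, 7 and 13 the medians were -0.44, -0.62 and -0.50. Cluster 13 held 40 and 58 cells of the controls and 239 and 173 of the mutants, so that the make-up of this class differed between libraries too. With edgeR 0 passed, against 0% of 11846 genes, and with DESeq2 0. At an unadjusted edgeR p under 0.05 stood 5 genes, all lower, against 3.06% of all genes lower and 2.42% higher. With DESeq2 3 did. Both mutants lay below both controls for 14 of the 25 genes, against 15.7% of all genes, and above both for 1, against 19.9%. The summed Purkinje markers stood at 1853 and 2355 CPM in the progenitor-like cells of the controls and at 1374 and 1427 CPM in those of the mutants, with 3 of the 14 markers lower in both mutants than in both controls, 1 higher and 1 at 0, and their part was not tested. The summed radial progenitor markers stood at 11444 and 22298 CPM against 17078 and 15413 CPM.

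Grm3 stood at 95.3 and 83.9 CPM in the progenitor-like cells of the controls (283 and 62 UMIs) and at 50.3 and 48.2 CPM in those of the mutants (273 and 199 UMIs), a log2 fold change of -0.90 (SE 0.20, edgeR adjusted p = 0.847). The groups lay well apart, and without control replicate 1 or 2 the log2 fold change of Grm3 was -0.85 or -0.92. Glra2 stood at 11.8 and 16.2 CPM against 3.32 and 6.06 CPM, a log2 fold change of -1.52 (SE 0.44). Gabra2 stood at 46.8 and 54.1 CPM against 26.7 and 31.8 CPM, a log2 fold change of -0.80 (SE 0.25). Without control replicate 1 or 2 Glra2 had -1.91 or -1.34, and Gabra2 had -0.98 or -0.66. Gria1 stood at 20.5 and 6.77 CPM against 4.43 and 6.79 CPM, with overlapping groups and a log2 fold change of -1.55 (SE 0.47) that passed with edgeR when low counts were kept (adjusted p = 0.0235). Grin2b stood at 9.10 and 6.77 CPM against 3.69 and 4.12 CPM, a log2 fold change of -1.12 (SE 0.35). Gria2, Gria4, Grik3 and Glrb also had both mutants below both controls, with log2 fold changes of -0.72, -0.66, -0.83 and -0.52.

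**Figure D2:**
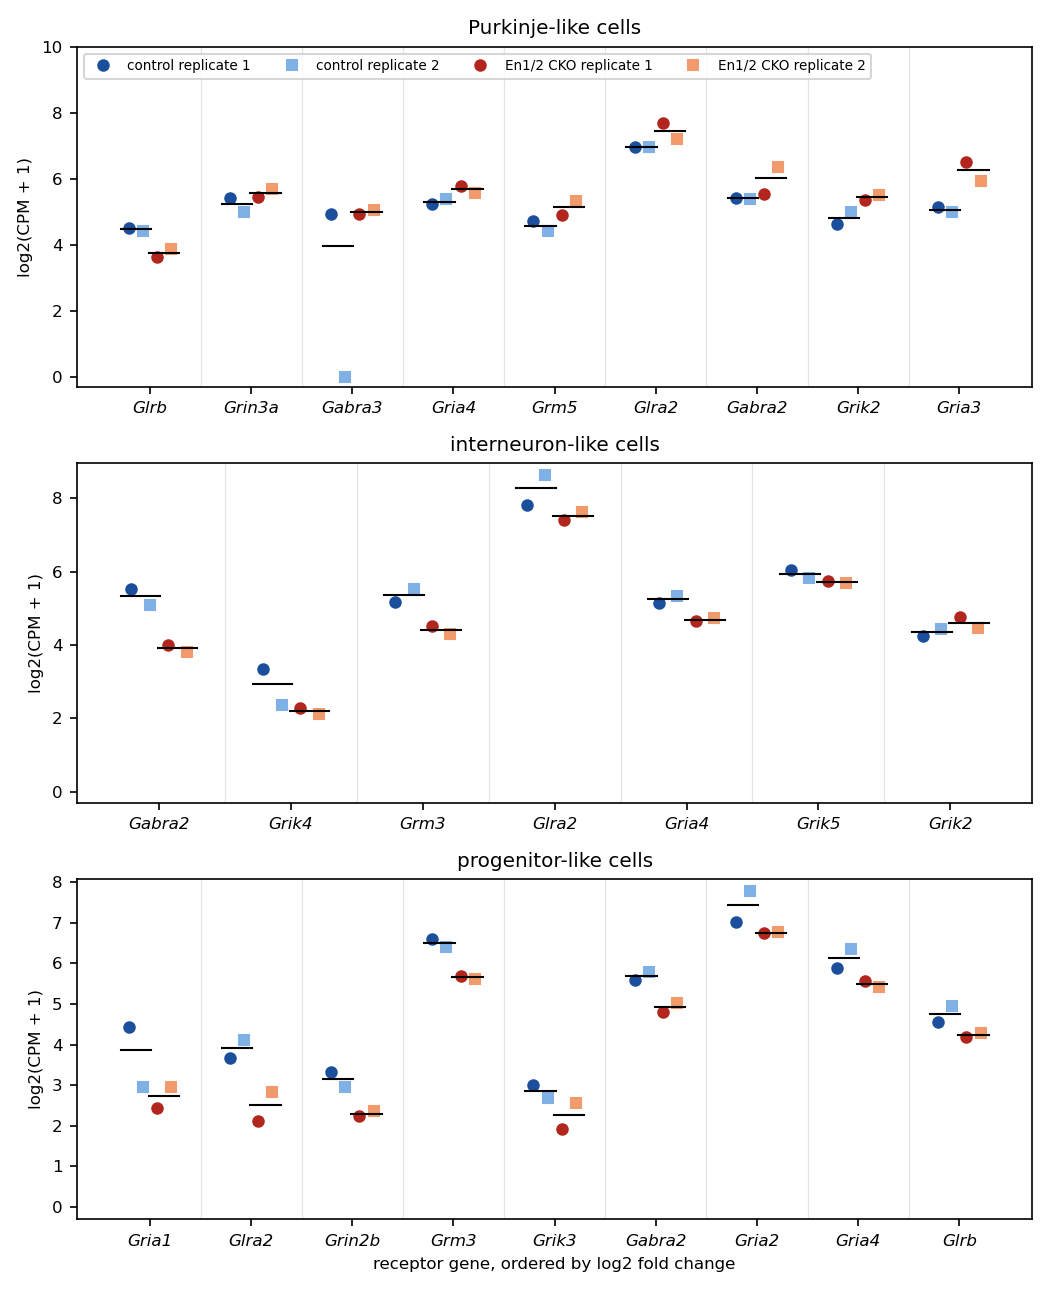
Values of the named receptor genes in 1 panel for each of the 3 classes of cells. The vertical axis is log2(CPM + 1), points are libraries (blue controls, red and orange mutants) and black lines are the means of each genotype. Genes whose groups did not overlap were named first, so the panels do not show how often this occurred. Of all receptor genes tested in Purkinje-like cells, 10 of 25 had both mutants above both controls, against 17.3% of all genes. In progenitor-like cells 14 of 25 had both mutants below both controls, against 15.7% of all genes.

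Whether the genotype effect differed between Purkinje-like and interneuron-like cells was tested directly, with a class by genotype term in a fit that also held a term for each library. Of 30 receptor genes tested, 2 passed with edgeR, Gabra2 and Grin2b, both with the higher effect in Purkinje-like cells. Of all 10201 genes 0.48% passed, 0.304% with the higher effect in Purkinje-like cells. The targeted gene En2 was among these, with a difference of 1.10 (SE 0.26, edgeR adjusted p = 0.0405). Whether this bears on the receptor genes was not tested. At an unadjusted edgeR p under 0.05 stood 6 of the 30, all with the higher effect in Purkinje-like cells, against 4.68% of all genes. With interneuron-like cluster 1 alone 1 gene was higher and 1 lower at that p, with cluster 2 alone 1 higher and 4 lower, and with cluster 9 alone 2 higher and 0 lower, so that the one-sided pattern was not that of each cluster. For Gabra2 the difference of the log2 fold changes was 2.199 (SE 0.36, edgeR adjusted p = 0.000409). In Purkinje-like cells Gabra2 stood at 42.0 and 41.1 CPM in the controls and at 45.9 and 81.5 CPM in the mutants, a log2 fold change of 0.59, against -1.57 in interneuron-like cells. The Purkinje-like groups were close together apart from En1/2 CKO replicate 2, and without this library the difference was 1.71 with an edgeR adjusted p of 0.216. Without control replicate 1 it was 1.95 with an adjusted p of 0.486. With interneuron-like cluster 1, 2 or 9 alone the difference was 2.25, 1.63 or 1.10, and it passed with cluster 1 only. With Purkinje-like cluster 8 or 12 alone it was 1.58 or 2.75, and it passed with cluster 12 only.

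For Grin2b, an NMDA receptor subunit, the difference was 1.07 (SE 0.24, edgeR adjusted p = 0.0225). It stood at 120 and 20.6 CPM in the Purkinje-like cells of the controls (172 and 2 UMIs) and at 122 and 115 CPM in those of the mutants. In interneuron-like cells it stood at 202 and 74.4 CPM in the controls and at 92.4 and 99.6 CPM in the mutants, so that the groups overlapped in both classes. Within interneuron-like clusters 1, 2 and 9 the log2 fold change of Grin2b was 0.09, 0.23 and -0.32, against -0.60 in the class. The difference from Purkinje-like cells was 0.30, -0.16 and 0.75 with these clusters alone, and passed with none of them. It also did not pass when either mutant library or control replicate 1 was left out (2.27 without the latter), or with Purkinje-like cluster 12 alone (1.29). Glra2 was next, with a difference of 0.94 (SE 0.24, edgeR adjusted p = 0.0521). It passed with RLE size factors (edgeR adjusted p = 0.0428), without the filter on low counts (0.0349) and with Purkinje-like cluster 8 alone (0.028). It did not pass with Purkinje-like cluster 12 alone, or with interneuron-like cluster 1, 2 or 9 alone. Without control replicate 1 or 2 the difference was 1.75 or 0.73. Without En1/2 CKO replicate 2 it was 1.37, and without En1/2 CKO replicate 1 it did not pass.

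**Figure D3:**
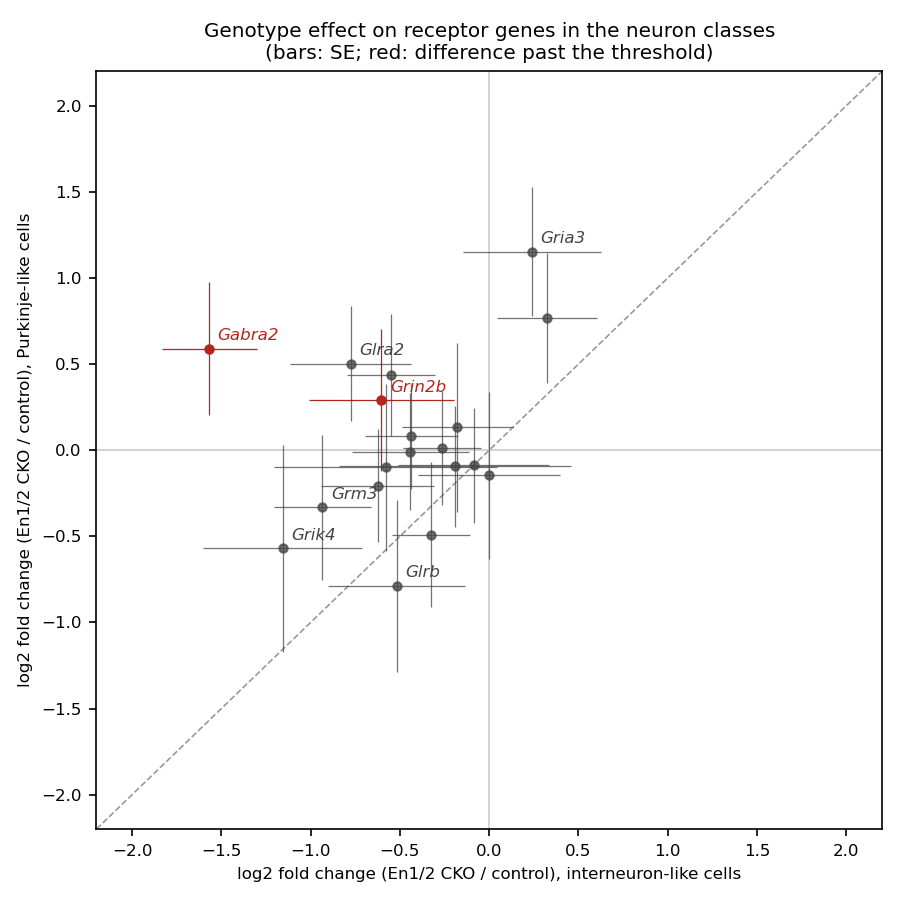
Log2 fold change (En1/2 CKO over control) in Purkinje-like cells (vertical) against interneuron-like cells (horizontal) for the 19 receptor genes tested in both classes, with SE bars and the line of equal change dashed. Points for 15 of the 19 genes lie above the line, and the genes in red, Gabra2 and Grin2b, passed the test of the difference. Both axes share the same 4 libraries.

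**Figure D4:**
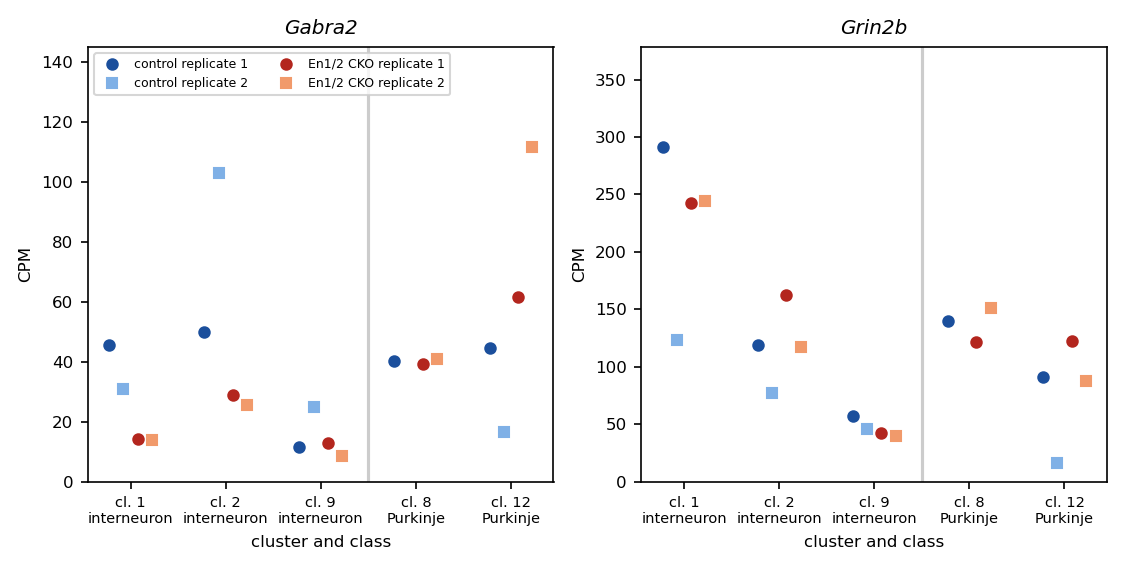
CPM of Gabra2 (left) and Grin2b (right) by library in the interneuron-like clusters 1, 2 and 9 and the Purkinje-like clusters 8 and 12. Control replicate 2 is not drawn in cluster 8, where it has 16 cells. It has 24 cells in cluster 2, where 3 UMIs correspond to 77.2 CPM. Gabra2 lies lower in both mutants than in both controls in clusters 1 and 2, and Grin2b does so in cluster 9 only.

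Genes that work with these receptors were counted from 4 lists. Of auxiliary subunits and scaffolds of AMPA, kainate and NMDA receptors, 0 of 35, 29, 28 and 27 genes passed with edgeR over all kept cells and in the Purkinje-like, interneuron-like and progenitor classes, and the medians of their log2 fold changes were -0.35, -0.11, -0.26 and -0.28. At an unadjusted edgeR p under 0.05 stood 5 lower over all kept cells, 2 higher and 1 lower in Purkinje-like, 1 higher and 2 lower in interneuron-like and 1 lower in progenitor-like cells. Of the inhibitory synapse scaffold and chloride transport genes 0 of 14, 13, 13 and 11 passed, and 0 had an unadjusted edgeR p under 0.05. Of the ligands and partners of delta receptors 0 of 7, 5, 7 and 6 passed, and of the other transmitter receptors 0 of 16, 7, 9 and 10. At an unadjusted edgeR p under 0.05 the delta receptor partners had 0, 1, 2 and 0 genes and the other transmitter receptors 2, 2, 0 and 2. In either direction 4.74%, 2.91%, 4.79% and 5.49% of all genes tested had such a p in these sets of cells.

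Single genes of these lists with the smallest p-values were as follows, none past the adjusted threshold. In interneuron-like cells C1ql3, a secreted synaptic organiser, had a log2 fold change of -2.45 (SE 0.48) and Cbln2, a cerebellin that binds delta receptors, had 1.74 (SE 0.64). Cbln2 also had 1.12 (SE 0.50) in Purkinje-like cells. The nicotinic receptor genes Chrna3 and Chrna5 had -1.64 (SE 0.44) and -1.66 (SE 0.47) in Purkinje-like cells. Cacng4, an AMPA receptor auxiliary subunit, had -0.50 (SE 0.20) and the nicotinic receptor gene Chrnb2 had -1.01 (SE 0.38) in progenitor-like cells. Over all kept cells the serotonin receptor gene Htr2c had 5.69 (SE 0.84), and choroid plexus markers, among the cells that express it, summed to 56.1 and 37.1 CPM in the controls and to 13449 and 4523 CPM in the mutants. All choroid plexus-like cells came from the mutant libraries, 68 and 21 of them.

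**Figure D5:**
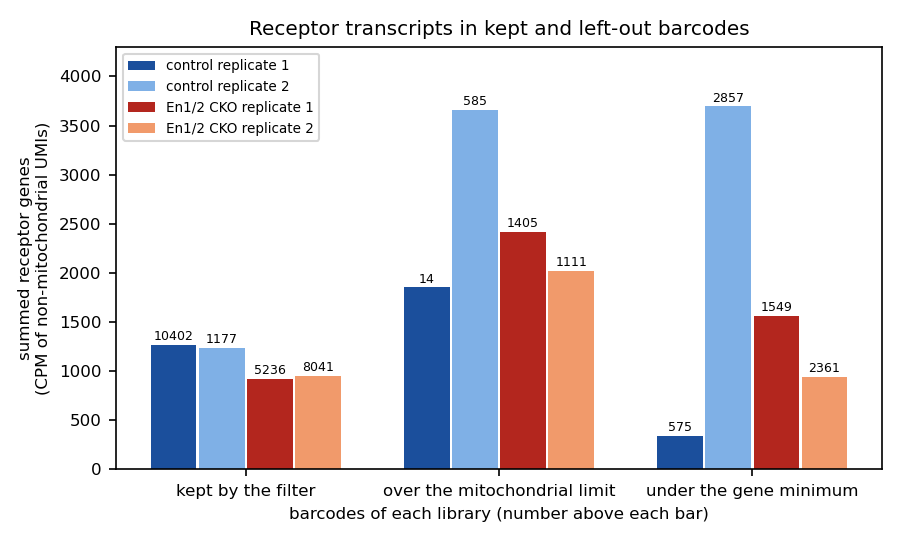
Summed CPM of the 42 receptor genes, over non-mitochondrial UMIs, in barcodes kept by the filter, over the mitochondrial limit and under the gene minimum, for each library (number of barcodes above each bar). Kept barcodes lie between 917 and 1269 CPM, and the 585 barcodes of control replicate 2 over the mitochondrial limit lie at 3654 CPM.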

How the data were processed

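Per the labels, tdTomato-positive cells were sorted after Accutase dissociation and libraries were made with 10x Genomics 3′ v3.1 kits. The authors deposited UMI counts per gene and barcode, without normalisation, made with Cell Ranger 6.1.0 against mm10 per the submitters' processing notes. Total UMIs per library were 15470932, 5305154, 20724086 and 21021428, which sets the precision, and floors of 3 counts cover counting error only. Intron counting is not given in the sources used here.

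The filter kept barcodes of 500 or more genes whose mitochondrial share was 10% or less. Scrublet in scanpy 1.11.5 gave doublet scores. The automatic threshold was kept in control replicate 2, where it marked 0.51%, and in the other libraries, where it marked under 0.5%, the highest scores at 0.8% per 1000 barcodes were removed (8.80%, 6.55% and 9.22%). Counts scaled to 10000 per cell and logged gave 2000 variable genes, 30 principal components, 15 neighbours and Leiden clusters (leidenalg 0.10.2, resolution 1). Receptor genes were left out of the variable genes and marker lists. A cluster was named where at least 3 markers of a type were 1.5-fold higher and found in at least 1% of its cells. At least 1 of the first 3 markers listed for the type had to be among them. No other type could have more markers among the 10 leading genes of the cluster. A cluster led by haemoglobin genes stayed unnamed.

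Counts summed per library and class were tested with edgeR 4.0.16 (quasi-likelihood test after TMM scaling and filterByExpr, 2-sided, with Benjamini-Hochberg adjustment over all genes and a threshold of 0.05), with DESeq2 1.42.0 as an alternative. The test was checked on simulated data. Named genes were those past the threshold, then per class those with at least 20 CPM in a genotype and groups that did not overlap, at most 10 a direction, and then by smallest p up to 10. Across types, genes with at least 50 CPM were named. Some genes that the rule names are not reported here. Of pathway genes at most 6 per class were eligible. Other genes, among them those named for the gene groups on chromosome X, Grik1, Grin2c, and Grin1 in the fits without a control, were chosen after their values were seen. Members and lists were chosen with earlier results of these data known. Other settings tried were DESeq2, RLE size factors, a cell filter of 1000 genes and 5%, all genes tested whatever their counts, doublets kept, Leiden resolution 2, the replicate block and each library left out. All barcodes, no mitochondrial limit, crossed pairing and single clusters were added after seeing the data. The labels do not say whether equal replicate numbers mark a shared experiment, and the samples were treated as unpaired.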

Additional observations from a re-analysis of the deposited data

Results flagged for a closer look

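The genotype effect on Gabra2 differed between Purkinje-like and interneuron-like cells by 2.199 on the log2 scale, and that on Grin2b by 1.07, each by a test of the difference itself with edgeR. For both genes the values by cluster and without single libraries stand in the report.

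Some barcodes outside the cell filter held more receptor transcript than the kept ones. In barcodes over the mitochondrial limit the 42 genes summed to 3654 CPM of non-mitochondrial UMIs in control replicate 2 (585 barcodes), 2416 CPM in En1/2 CKO replicate 1 (1405 barcodes) and 2018 CPM in En1/2 CKO replicate 2 (1111 barcodes). Barcodes that passed the filter in the same libraries held 1234, 917 and 949 CPM, so the left-out barcodes held 2.96, 2.64 and 2.13 times as much. The kept barcodes of control replicate 1 held 1269 CPM. Gria2 stood at 1138 CPM in those of control replicate 2, against 346 CPM in its kept barcodes, and Glra2 at 481 against 94.1 CPM. The Purkinje markers summed to 4397 CPM there, against 2055 CPM, and Malat1 stood at 71789 against 35452 CPM. In barcodes with under 500 genes the receptor genes summed to 337, 3694, 1562 and 935 CPM in control replicates 1 and 2 and En1/2 CKO replicates 1 and 2, which was 0.266, 2.99, 1.70 and 0.986 times the level of the kept barcodes, so that these barcodes were not richer in every library. Why the sets differed was not tested.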

How the results depend on the processing

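With 2 libraries per genotype and a control of 1171 cells, the calls rested on the controls. Leaving out 1 library at a time, edgeR called between 0 and 12 receptor genes over all kept cells, 0 and 2 in Purkinje-like, 0 and 7 in interneuron-like and 0 and 6 in progenitor-like cells, where 0 were called with all libraries, and the calls arose only without a control. The lone control was then assumed to vary like the mutants. The test of the difference between classes gave between 1 and 3, and 3 with RLE size factors and 3 without the low-count filter. Without the low-count filter 1 was called in interneuron-like cells (Gabra2) and 1 among progenitors (Gria1). RLE size factors, DESeq2, the stricter cell filter, doublets kept and Leiden resolution 2, where run, called 0 in each class, as did all barcodes and no mitochondrial limit over all kept cells. Clusters 1, 2 and 9 alone as the interneuron side gave 1, 0 and 0 calls of the difference, and Purkinje-like cluster 12 alone gave 1, where 2 were called, and the cause was not tested. Over all genes, edgeR called 0, 2, 0 and 0 in the 4 sets of cells, DESeq2 called 52, 2, 2 and 3, edgeR without the low-count filter called 0, 19, 42 and 74, and without control replicate 2 it called 2581, 233, 2260 and 2620.

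Of 379 values of named genes under alternatives, 6 changed sign: Glra2 (-0.034), Gabra2 (-0.21), Grm5 (-0.76), Grin3a (-0.59) and Gabra3 (-0.23) in Purkinje-like cells under the stricter cell filter, with 11 cells in control replicate 2, and Grin2b (-0.16) in the difference with interneuron-like cluster 2. The other values of the 379 kept their direction. Fits within single clusters were not counted, apart from Gabra2 in interneuron-like cells and the difference between classes. Fits with the pairing crossed were not counted either. Some single-cluster values had the opposite sign to their class. As given above, these included Gabra2 in Purkinje-like cells and Glra2, Gria4 and Grik5 in interneuron-like cells. The count of genes with at least 50 CPM in a type stayed within 1.5 times of 18.

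Same-numbered libraries did not deviate together (r = 0.041, 0.034, -0.168 and -0.277 over all kept cells and in the Purkinje-like, interneuron-like and progenitor classes). With the replicate number as a block edgeR called 0 receptor genes in each class, and 117, 2, 5 and 0 of all genes. With the pairing crossed it called 0 receptor genes in interneuron-like and progenitor-like cells, and 0 and 27 of all genes. Control replicate 2 limits depth: differences under 30.8 CPM in its Purkinje-like cells rest on under 3 UMIs.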

Other observations

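Receptor families peaked in different cell types. Summed over the NMDA receptor genes, Purkinje-like cells held 227 ± 69.0 CPM (SD, n = 4 libraries), interneuron-like cells 176 ± 92.1 CPM and radial progenitor-like cells 25.2 ± 5.00 CPM. Summed over the kainate receptor genes, Purkinje-like cells held 208 ± 4.88 CPM, with the smallest spread relative to the mean of these sums, and interneuron-like cells 124 ± 15.2 CPM. The metabotropic glutamate receptor genes summed to 254 ± 92.6 CPM in astroglia-like cells, 139 ± 38.6 CPM in radial progenitor-like cells and 103 ± 15.7 CPM in Purkinje-like cells.

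In the left-out barcodes the receptor genes over the mitochondrial limit can be set beside the kept ones gene by gene. Grin2b stood at 106, 160 and 116 CPM in control replicate 2 and En1/2 CKO replicates 1 and 2, against 20.1, 29.2 and 30.1 CPM, and Gabrb1 at 67.9, 33.2 and 43.9 CPM against 55.0, 45.7 and 56.9 CPM.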
